A study of Mus musculus with 6 samples.

Results

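Hox, Meis, Pbx and Tbx genes are the transcription factor genes that set and keep positional identity along the body and the limbs. They were taken from the count table as the protein-coding rows whose symbols name a numbered gene of the Hoxa, Hoxb, Hoxc or Hoxd cluster or a numbered Meis, Pbx or Tbx gene. This gave 47 of the 22030 genes of the table, namely 31 Hox, 3 Meis, 4 Pbx and 9 Tbx genes. The same pattern matches 59 symbols of the GENCODE M21 annotation, and the other 12 (Hoxa13, Hoxb13, Hoxd1, Hoxd9 to Hoxd13, Tbx5, Tbx10, Tbx19 and Tbx22) were not analysed here. The rule reads the symbols and uses no measured value.

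The cells were mouse bone marrow mesenchymal stem cells, stromal progenitors of bone, fat and cartilage, sequenced as messenger RNA in 6 libraries. The 3 knockdown libraries, titled siRIOK3, carry the genotype label RIOK3 knockdown, and the 3 control libraries, titled siNC, carry the label WT. The series' design text speaks of stable lentiviral lines, uses the word knockout as well, and names the control blank, so which agent was delivered is not settled by the labels. The sources used here do not give the strain, the age, the skeletal site of the marrow, the medium or the harvest day. No label ties the 3 libraries of a group to cultures of their own, and the p-values therefore rest on a spread between libraries that may be technical.

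Hox proteins are homeodomain transcription factors encoded in clusters. Genes with low numbers act towards the head and genes with high numbers towards the tail and the tips of the limbs, and stromal cells of the adult are known to keep much of the Hox profile of the place they came from. Pbx and Meis proteins, homeodomain factors of the TALE class, bind DNA together with Hox proteins. Tbx genes encode T-box factors, several of which pattern the limbs and their girdles.

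Total counts were 29722286, 30517261 and 28327612 in knockdown replicates 1, 2 and 3, and 32569544, 31089006 and 31536610 in control replicates 1, 2 and 3. The members held between 25768 and 28303 counts per knockdown library and between 20650 and 22210 per control library. Riok3 itself had 32.1, 31.5 and 37.2 CPM (read counts scaled to a common depth with TMM factors) in the knockdown, against 143, 193 and 135 CPM in control, a log2 fold change of −2.23 (SE 0.178, edgeR adjusted p = 0.000127). The Riok3 transcript has 40.6% GC. Tested genes within 1 point of 42.4% GC had a median log2 fold change of −1.14, and those within 1 point of 38.8% had −1.95. How much of the Riok3 change goes with this trend was not tested. Of 18 stromal markers 16 were tested, and 7 rose and 7 fell. That is 87.5% called, where 48% of all tested genes were called. The summed level of the markers was 5610 to 5812 CPM in the knockdown and 5092 to 5419 CPM in control. Fn1 and Vim were the most abundant, and Lepr and S100a4 were below the count filter. With the GC trend described below removed, 3 of the 16 were called higher and 2 lower, where 17% of all genes were higher and 15.6% lower. The mesenchymal surface markers Eng and Nt5e averaged 3.38 and 1.64 CPM in the knockdown and 1.80 and 3.09 CPM in control. The defining blood markers were at or near 0, with at most 3 counts of Ptprc in a library. Of 12 myeloid markers only Cd14 and Cd68 were tested, none was called, and the list summed to 46.7 to 51.8 CPM in the knockdown and 26.9 to 43.4 CPM in control. Of 7 endothelial markers 4 were tested, and Vwf and Plvap rose and none fell, or 50% called, near the 48% of all genes. The endothelial list summed to 16.3 to 17.5 CPM in the knockdown and 7.69 to 11.01 CPM in control, and Pecam1, Cdh5 and Erg were below the filter. Control replicate 2 stood apart, as its log2 CPM values had Spearman correlations with the other control libraries of 0.963 and 0.968, against 0.996 between those. Mitochondrially encoded RNA took 0.714 to 0.773% of the knockdown counts and 1.26 to 1.82% of the control counts. Of a list of nuclear and mitochondrial RNAs read as signs of RNA quality, 13 of 14 tested genes fell (92.9%, where 26.8% of all genes fell). With the GC trend removed 4 were lower and 6 higher, where 15.6% of all genes were lower and 17% higher. The part of these lists in the results was not tested.

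For 4 Hox and Tbx genes that changed, RefSeq promoters (250 bases before to 50 after the start, build GRCm38.p6) were at hand and are printed 5′ to 3′ on the gene's strand. Hoxa2, Hoxb4 and Hoxb8 are shown as genes that rose and Tbx18 as the gene that fell. Capitals mark matches on either strand to TATAAA, the TATA box, or to TGATNNAT, a composite Hox and Pbx site.
Hoxa2, chr6:52164782-52165081, minus strand: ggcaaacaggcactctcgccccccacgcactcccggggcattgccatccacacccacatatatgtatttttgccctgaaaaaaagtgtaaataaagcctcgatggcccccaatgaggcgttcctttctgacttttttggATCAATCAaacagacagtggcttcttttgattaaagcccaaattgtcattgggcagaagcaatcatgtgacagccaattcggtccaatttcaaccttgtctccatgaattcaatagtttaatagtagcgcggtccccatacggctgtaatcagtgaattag
Hoxb4, chr11:96318017-96318316, plus strand: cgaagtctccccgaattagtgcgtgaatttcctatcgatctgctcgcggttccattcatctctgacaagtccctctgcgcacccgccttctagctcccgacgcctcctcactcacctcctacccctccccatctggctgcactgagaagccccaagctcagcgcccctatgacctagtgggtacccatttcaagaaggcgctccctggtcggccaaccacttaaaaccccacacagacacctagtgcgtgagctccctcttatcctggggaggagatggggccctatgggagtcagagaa
Hoxb8, chr11:96281655-96281954, plus strand: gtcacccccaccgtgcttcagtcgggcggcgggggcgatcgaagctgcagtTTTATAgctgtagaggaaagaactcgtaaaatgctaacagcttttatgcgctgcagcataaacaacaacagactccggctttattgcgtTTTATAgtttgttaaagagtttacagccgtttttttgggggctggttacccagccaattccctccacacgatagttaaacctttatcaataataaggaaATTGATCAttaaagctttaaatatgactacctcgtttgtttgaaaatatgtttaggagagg
Tbx18, chr9:87731211-87731510, minus strand: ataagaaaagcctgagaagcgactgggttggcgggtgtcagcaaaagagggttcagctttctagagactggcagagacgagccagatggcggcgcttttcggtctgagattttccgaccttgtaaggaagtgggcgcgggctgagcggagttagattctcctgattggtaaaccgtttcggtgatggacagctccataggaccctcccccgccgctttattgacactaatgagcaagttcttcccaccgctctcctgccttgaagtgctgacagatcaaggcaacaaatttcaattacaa

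Hoxa2 and Hoxb8 each held 1 match to TGATNNAT, and Hoxb8 held 2 to TATAAA, while Hoxb4 and Tbx18 held neither motif. Promoters were found for 26 members, 28 in all. TGATNNAT occurred in 4 of these (14.3%) and in 8.85% of 32851 RefSeq promoters of the same length, and TATAAA in 6 (21.4%) and in 13.6%. The T-box motif AGGTGTGA occurred in 0 member promoters and in 1.28% of all. Member promoters had a median GC content of 58.2%, against 52.7% over all, and a median CpG ratio (observed over expected) of 0.662, against 0.384. These matches are a description of the letters and not of binding.

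The Hox profile, read per gene length as the authors' FPKM values, ran over the Hoxa, Hoxb and Hoxc clusters and held almost nothing of Hoxd. The gene length implied by FPKM was 1961 bases for Hoxc10, whose longest-coding transcript has 1909. For Hoxa9 these were 5732 and 3226, and for Hoxc6 2473 and 1581, so shares and ranks depend on the lengths used. Hoxc genes made up 53.7, 52.5 and 52.8% of the summed Hox FPKM in knockdown replicates 1, 2 and 3, against 45.8, 42.6 and 46.0% in control replicates. Hoxb genes made up 36.8 to 37.8% in the knockdown, against 42.1 to 45.5% in control, and Hoxa genes 9.48 to 10.1% in the knockdown, against 11.7 to 11.9% in control. Hoxd3, Hoxd4 and Hoxd8 together made up at most 0.0169% in any knockdown library and at most 0.0285% in any control library. Genes of paralogue groups 9 to 13 took 57.2 to 58.3% of the Hox FPKM in the knockdown, against 47.7 to 49.8% in control. For the genes of groups 4 to 8 the shares were 38.2 to 39.2% in the knockdown and 46.7 to 49.6% in control, and for groups 1 to 3 they were 3.27 to 3.64% in the knockdown and 2.72 to 3.58% in control. The shares of the Hoxa, Hoxb and Hoxc clusters and of the central and posterior genes did not overlap between the groups, and those of the anterior genes did. Shares depend on each other, so a lower share is not a lower level. Summed Hoxb CPM was 227 to 235 in the knockdown and 180 to 196 in control. For the central genes it was 226 to 229 and 194 to 215, and for Hoxa 83.3 to 89.7 and 80.1 to 91.9. Neither shares nor sums were corrected for the GC trend described below.

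The same few genes led the profile in both groups. Hoxc10, a gene of posterior body and hindlimb level, had 98.7, 94.9 and 92.2 FPKM in the knockdown and 44.2, 42.1 and 49.6 FPKM in control, the highest Hox value in every library except control replicate 2. There Hoxb7 was highest, at 52.6 FPKM, and Hoxb7 was next after Hoxc10 in the other libraries. Hoxc10, Hoxb7 and Hoxb9 together took 58.6 to 59.7% of the Hox FPKM in the knockdown and 56.3 to 57.8% in control. FPKM is scaled to library totals and not by TMM, so its group differences are not the fold changes tested below.

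**Figure D1:**
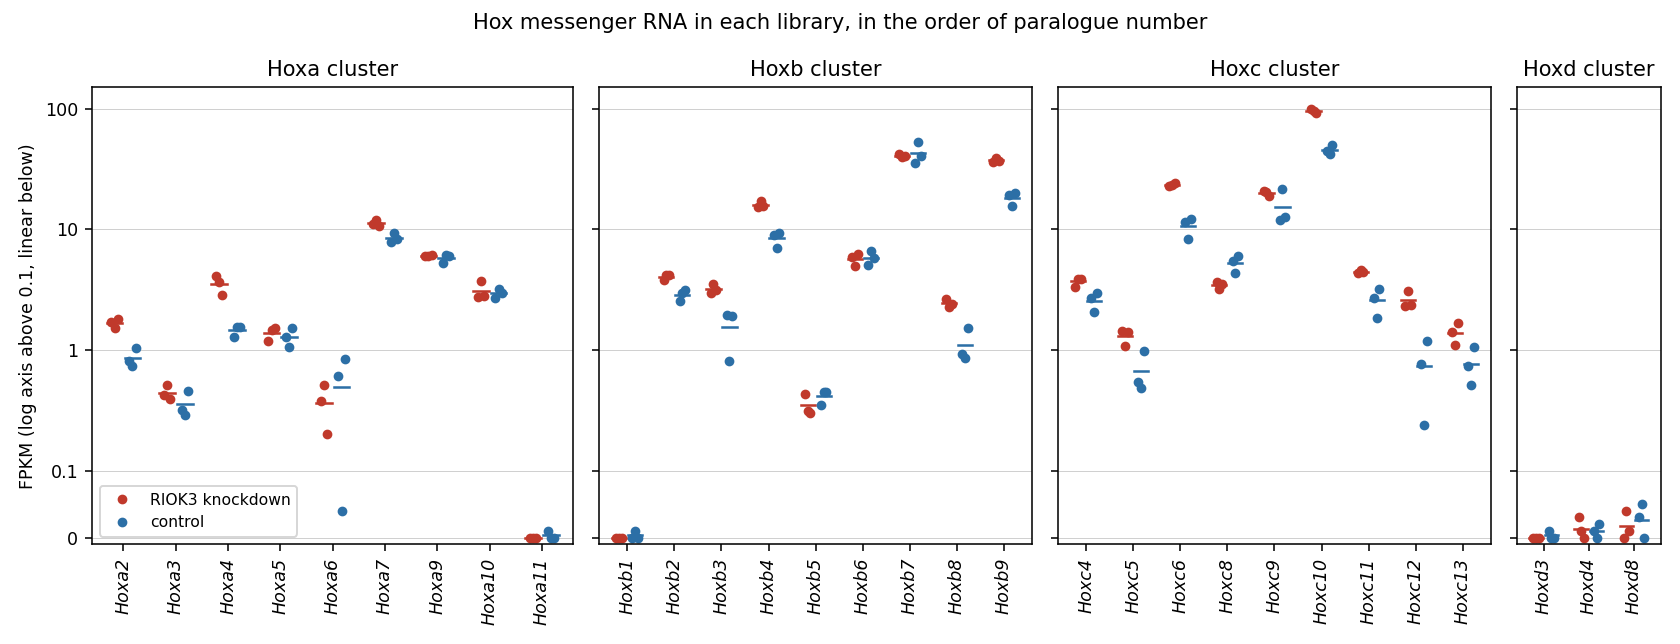
FPKM of 30 Hox genes in each library, by cluster and paralogue number, with knockdown libraries left (red) and control libraries right (blue) and a line at each mean. The vertical axis is logarithmic above 0.1 and linear below. Hoxc10 sits highest, between 92.2 and 98.7 FPKM in the knockdown and between 42.1 and 49.6 FPKM in control, and the Hoxd genes and Hoxa11 lie at or near 0.

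Within the detected clusters the profile had sharp steps. Hoxa11, which with its Hoxd11 paralogue patterns the forearm in mice, had 0 counts in the 3 knockdown libraries and 1, 0 and 0 in control replicates 1, 2 and 3, next to Hoxa10 with 266 to 380 counts per knockdown library and 297 to 336 per control library. Hoxc11, its paralogue on chromosome 15, had 259 to 287 counts in the knockdown and 118 to 213 in control. Hoxb1 had 0 counts except for 1 in control replicate 2, beside Hoxb2 at 402 to 451 counts in the knockdown and 301 to 356 in control. Hoxa11 and Hoxb1, with Hoxd3, Hoxd4 and Hoxd8, were the 5 Hox genes that the count filter removed, and none of them had more than 4 counts in any library. A count of 0 in these libraries does not show that a gene was silent in every cell.

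Of the 47 members, 37 passed the filter (26 Hox, 3 Meis, 4 Pbx and 4 Tbx), of which 10 rose and 3 fell in the RIOK3 knockdown. The test was edgeR's quasi-likelihood test with Benjamini-Hochberg adjustment over all 13067 tested genes, and a call is an adjusted p under 0.05. The 10 are 27% of the tested members, where 21.1% of all tested genes were called higher, and the 3 are 8.11%, where 26.8% of all genes were called lower. In either direction 35.1% of the members were called, against 48% of all genes. The median log2 fold change was 0.22 over the tested members and 0.01 over all tested genes. Groups did not overlap in CPM for 19 members (51.4%), against 62.1% of all tested genes. Under library totals alone or upper-quartile factors, which put the median of all genes at 0.26 and 0.21, the calls among members were 17 higher and 2 lower, beside a background of 32.8% of all genes higher (54.3% in either direction) for totals and 28.9% (51.3%) for upper-quartile factors, and no called gene changed direction. Without control replicate 2 the calls were 15 higher and 5 lower, including all 13, beside a background of 35.1% of all genes called higher and 36.5% lower (71.6% in either direction).

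Fold changes of all genes followed the GC content of their transcripts in these libraries, with a Spearman correlation of 0.69 over 13043 genes. Across the 37 tested members, which share the same libraries, it was 0.29. When each library's trend on GC content was removed, the members had 8 higher and 4 lower calls, beside a background of 17% higher and 15.6% lower (32.5% in either direction), and the member median was −0.05. With GC content and length removed they were 8 and 6, beside 21.4% and 18.1% (39.5%). With GC content removed and control replicate 2 left out they were 9 and 9, beside 34.4% and 28.5% (62.9%). With GC content alone removed, of the 10 genes that rose Hoxa2, Hoxb9, Hoxc6 and Hoxc10 were still called higher, and of the 3 that fell Tbx18 was still called lower. Hoxc10 and Tbx18 were called in the same direction under all 23 alternatives tried, and no other member was called under every alternative that tested it. Of the 13 called members, 7 kept the call whichever library was left out. The other 6 (Hoxa2, Hoxb8, Hoxc12, Meis3, Pbx2 and Tbx15) lost it without at least 1 library.

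**Figure D2:**
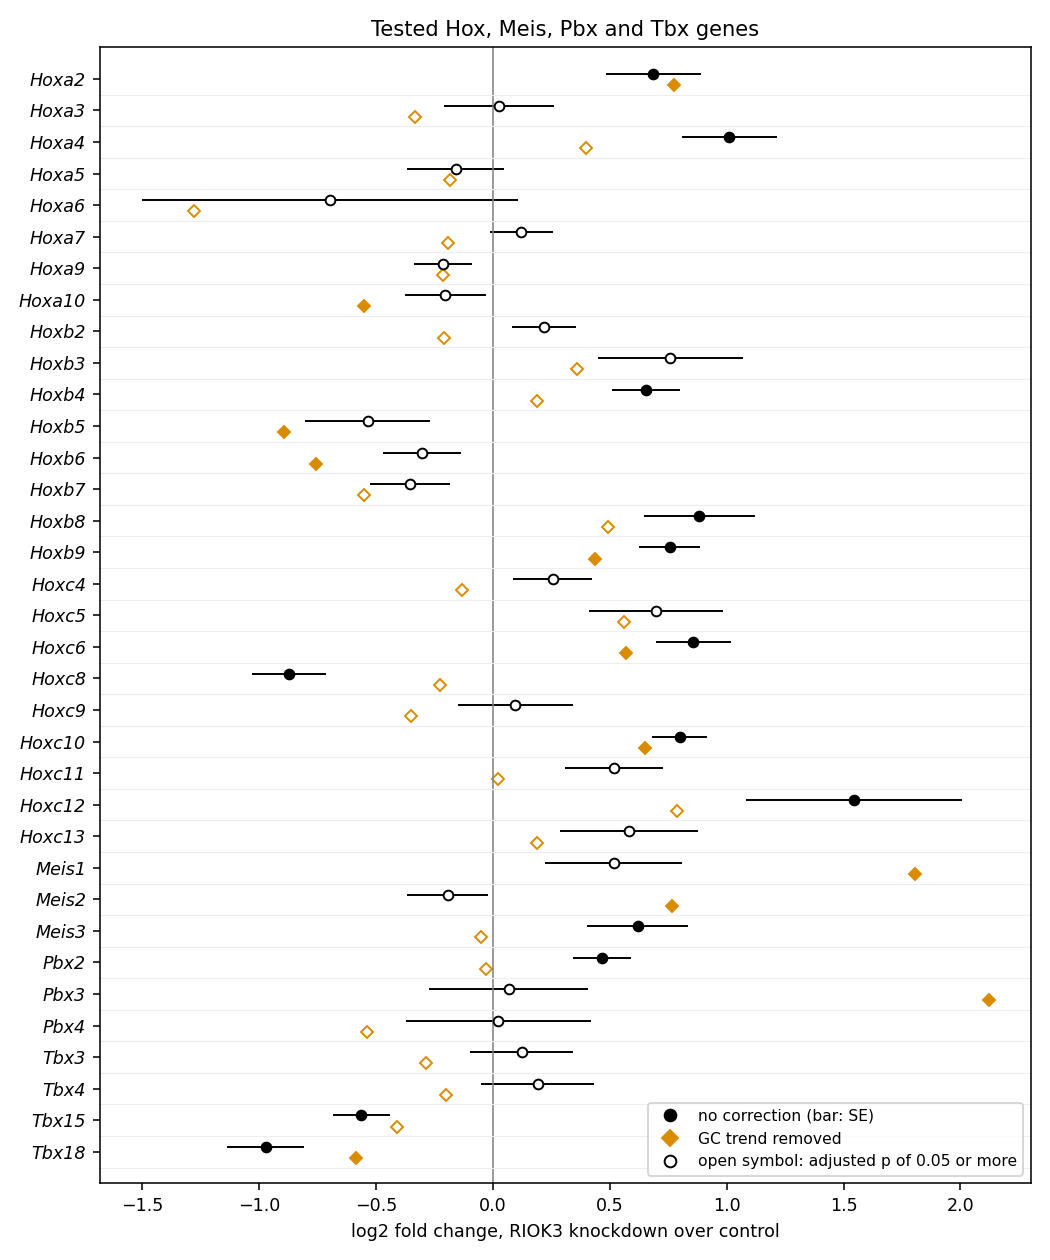
Log2 fold change (knockdown over control) of 35 tested members, uncorrected with its SE (black circles) and with the trend on transcript GC content removed (orange diamonds). Filled symbols have an adjusted p under 0.05. Most Hox points move to the left with the trend removed, Hoxc10 by little (0.80 and 0.65), while Pbx3 is at 0.07 uncorrected and at 2.12 with the trend removed.

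Among the posterior Hox genes, groups 9 to 13, 3 of 8 tested rose and none fell. That is 37.5% called, where 48% of all tested genes were called, 21.1% higher and 26.8% lower. Hoxc10 (ENSMUSG00000022484.8, chromosome 15) had 178, 169.5 and 164 CPM in the knockdown, against 96.4, 92.8 and 105 CPM in control. Every knockdown library lay above every control library. Its means were 170.4 ± 7.05 CPM in the knockdown and 98 ± 6.17 CPM in control (SD, n = 3 each), a log2 fold change of 0.80 (SE 0.117, edgeR adjusted p = 0.00148) and 0.65, still called, with the GC trend removed. Hoxb9 (ENSMUSG00000020875.10, chromosome 11), which patterns the thorax and its ribs together with its paralogues, had 87.0, 94.0 and 87.8 CPM in the knockdown, against 56.1, 46.6 and 56.4 CPM in control. It too rose without overlap, by 0.76 on the log2 scale (SE 0.130, edgeR adjusted p = 0.00304), and by 0.44, still called, with the GC trend removed.

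Hoxc12 (ENSMUSG00000050328.3, chromosome 15), a gene of the distal end of the cluster, had only 72, 99 and 70 counts in the knockdown, against 27, 8 and 40 in control. This was the largest fold change among tested members, at 1.54 (SE 0.462, edgeR adjusted p = 0.0291), on means of 2.49 ± 0.421 CPM in the knockdown and 0.847 ± 0.532 CPM in control (SD, n = 3 each). Control replicate 2 alone held 0.288 CPM, and without it the log2 fold change was 1.14, still called. The call was lost with the GC trend removed (0.79), and when control replicate 1 or any single knockdown replicate was left out, with adjusted p up to 0.0937 over the libraries left out.

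The other posterior genes did not pass, with Hoxc11 at a log2 fold change of 0.52 and Hoxc13 at 0.58. The adjusted p of Hoxc11 was 0.0765 (edgeR), and it was called without control replicate 2 (0.33) or control replicate 3 (0.69). Hoxa9 and Hoxa10 were at −0.21 and −0.20, and Hoxa10 was called lower, at −0.55, with the GC trend removed. Hoxc9 depended on control replicate 2. Its knockdown libraries had 47.7, 45.9 and 42.8 CPM, against 33.1, 60.5 and 33.9 CPM in control, so that control replicate 2 lay above the whole knockdown group and the other control libraries below it. The log2 fold change was 0.10 (SE 0.246), and 0.44 and called without that library.

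Central Hox genes, groups 4 to 8, went both ways, with 4 of 13 tested higher and 1 lower. That is 38.5% called, below the 48% of all tested genes. Hoxc6 (ENSMUSG00000001661.6, chromosome 15), a gene of forelimb and thoracic level, had 51.4, 52.5 and 53.7 CPM in the knockdown, against 31.4, 23.1 and 32.5 CPM in control. The groups were apart, with a log2 fold change of 0.86 (SE 0.160, edgeR adjusted p = 0.00448), and 0.57, still called, with the GC trend removed. Its call was lost under 1 alternative, the trend on GC content averaged over the gene's transcripts.

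Hoxc8 (ENSMUSG00000001657.8), which lies between Hoxc6 and Hoxc9 in the same cluster, was the Hox gene that fell. It had 9.76, 8.44 and 9.31 CPM in the knockdown, against 17.5, 14.1 and 18.8 CPM in control, without overlap. Its log2 fold change was −0.87 (SE 0.158, edgeR adjusted p = 0.00379). Its transcript has the lowest GC content of the tested Hox genes, 45.3%, and the 1304 tested genes within 1 point of it had a median log2 fold change of −0.51. With the GC trend removed Hoxc8 was at −0.23 and not called, although leaving out control replicate 2 as well (−0.26), or averaging GC content over transcripts (−0.49), gave a lower call. The counts of Hoxc10 over those of Hoxc8 were 18.2, 20.1 and 17.6 to 1 in the knockdown libraries and 5.50, 6.60 and 5.57 to 1 in control.

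Hoxa4, Hoxb4 and Hoxb8, genes of neck and thoracic level, rose without correction and were not called with the GC trend removed. With control replicate 2 left out as well, Hoxa4 was called higher, at 0.44 (edgeR adjusted p = 0.0491), and Hoxb4 and Hoxb8 were not called. Hoxb4 (ENSMUSG00000038692.9, chromosome 11) had 37.0, 40.9 and 37.5 CPM in the knockdown, against 26.1, 20.6 and 26.4 CPM in control, a log2 fold change of 0.66 (SE 0.145, edgeR adjusted p = 0.0087), and 0.19 after the correction. Hoxa4 (ENSMUSG00000000942.11, chromosome 6) had 6.22, 5.44 and 4.25 CPM in the knockdown and 2.32, 2.84 and 2.73 CPM in control, at 1.01 (SE 0.204, edgeR adjusted p = 0.00604) and 0.40 after it. Hoxb8 (ENSMUSG00000056648.6, chromosome 11) had 6.59, 5.62 and 5.86 CPM in the knockdown and 2.79, 2.59 and 4.41 CPM in control, at 0.88 (SE 0.237, edgeR adjusted p = 0.0194) and 0.49 after it. In all 3 genes the knockdown libraries were the higher ones, and the genes of like GC content, within 1 point, had medians of 0.45, 0.60 and 0.40 for Hoxb4, Hoxa4 and Hoxb8. The call of Hoxb8 was also lost without knockdown replicate 1, knockdown replicate 3 or control replicate 1, with adjusted p up to 0.0714.

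Hoxb5, Hoxb6 and Hoxb7, which lie side by side between Hoxb4 and Hoxb8, had negative log2 fold changes that did not pass, of −0.54, −0.30 and −0.35. Hoxb7 had 60.9, 57.2 and 58.2 CPM in the knockdown, against 62.7, 93.7 and 68.9 CPM in control, where replicate 2 stood high. Hoxb5 (−0.89) and Hoxb6 (−0.76) were called lower with the GC trend removed, and Hoxb7 was called as well, at −0.35, when length was removed too. Hoxb9 counts over Hoxb7 counts were 1.43, 1.64 and 1.51 to 1 in the knockdown libraries and 0.894, 0.498 and 0.819 to 1 in control. The remaining central genes, Hoxa5, Hoxa6, Hoxa7, Hoxc4 and Hoxc5, had log2 fold changes between −0.70 and 0.70 and were not called. Hoxa6 rested on 5 to 14 counts per knockdown library, against 18, 1 and 24 in control replicates 1, 2 and 3, and was called lower without control replicate 2, at −1.23. Hoxa7 was called higher without that library, at 0.21, and Hoxc5 without control replicate 3, at 1.05.

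Of the 5 anterior Hox genes tested, groups 1 to 3, Hoxa2 rose and none fell, or 20% called, below the 48% of all tested genes. Hoxa2 (ENSMUSG00000014704.11, chromosome 6), the selector gene of the second branchial arch, had 2.83, 2.52 and 2.99 CPM in the knockdown, against 1.64, 1.51 and 2.02 CPM in control. All knockdown values were above all control values, at a log2 fold change of 0.69 (SE 0.204, edgeR adjusted p = 0.0278), and 0.77, still called, with the GC trend removed. Its call was lost without any single knockdown replicate or without control replicate 1, with adjusted p up to 0.0899, on 42 to 93 counts per library. Hoxb3 had 11.9, 13.9 and 12.3 CPM in the knockdown, against 9.53, 3.99 and 8.96 CPM in control, at 0.76 without passing (SE 0.310, edgeR adjusted p = 0.0804), and was called without control replicate 2, at 0.46. Hoxa3 (0.03) and Hoxb2 (0.22) did not pass.

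**Figure D3:**
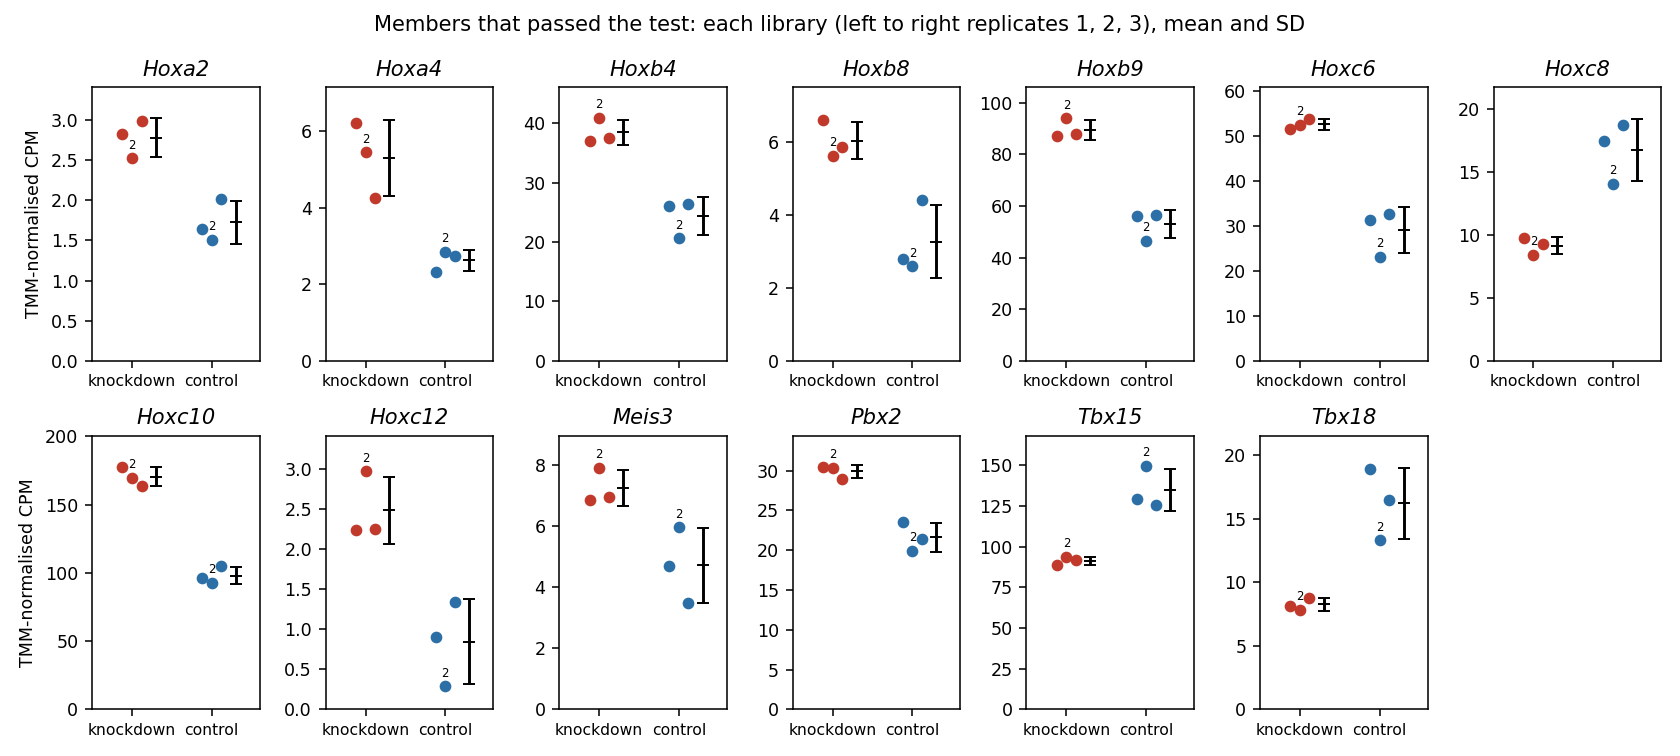
TMM-normalised CPM of the 13 called members in each library, knockdown left and control right, from replicate 1 to 3 within a group (replicate 2 is marked), with mean and SD beside the points. In every panel the groups do not overlap. Hoxc8, Tbx15 and Tbx18 are the panels in which the knockdown is lower.

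Several Hox counts may carry reads of a neighbour. The kit was stranded, but the sources used here do not give the strand setting of the authors' counting, which matters for neighbours on the opposite strand. Neighbours on the same strand are not told apart by strand under any setting. In GENCODE M21, 52.9% of the exon bases of Hoxb3 and 27.3% of those of Hoxb2 overlap the antisense gene Hoxb3os. The overlap was 20.4% for Hoxa7 with Hoxaas3, and 16% for Hoxa4 with Gm29430, both on the opposite strand. On the same strand, 15% of Hoxa2 overlaps Gm28308, 8.7% of Hoxc10 overlaps Hoxc5, and 6.24% of Pbx2 overlaps Gpsm3. Hoxc5, with 104 to 133 counts in the knockdown and 48 to 98 in control, shares 5.37% of its exon bases with the far more abundant Hoxc10. How many reads of these genes came from the neighbour was not tested, and their values are uncertain. Of 8 noncoding RNA genes of the Hox clusters in the table, 4 were tested and none was called, where 48% of all tested genes were. Their median log2 fold change was −0.10. Hotairm1, from the Hoxa cluster, was at 0.55, and Hotair, from the Hoxc cluster, at −0.86 (adjusted p = 0.0786 and 0.143, edgeR). Both were called without control replicate 2, at 0.80 and −1.11.

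Of the TALE cofactors, Meis3 and Pbx2 rose without correction. Pbx2 (ENSMUSG00000034673.15, chromosome 17), a partner of many Hox proteins, had 30.4, 30.3 and 29.0 CPM in the knockdown, against 23.5, 19.9 and 21.5 CPM in control. The groups were apart, with a log2 fold change of 0.47 (SE 0.126, edgeR adjusted p = 0.0191). Meis3 (ENSMUSG00000041420.19, chromosome 7) had 6.87, 7.93 and 6.96 CPM in the knockdown and 4.70, 5.97 and 3.50 CPM in control, at 0.62 (SE 0.217), with an adjusted p of 0.0499 (edgeR) that only just passed. Neither was called with the GC trend removed, where Pbx2 was at −0.032 and Meis3 at −0.051. The genes of like GC content had medians of 0.49 for Pbx2 and 0.65 for Meis3. Pbx2 lost its call without any single knockdown replicate or without control replicate 3, and Meis3 when any library other than control replicate 2 was left out, with adjusted p up to 0.0803 and 0.153.

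Meis1, Meis2 and Pbx3 have transcripts of low GC content, around which the median fold change of all genes was negative, and none of them was called without correction. Pbx3 had 12.8, 12.1 and 15 CPM in the knockdown, against 18.1, 6.47 and 13.5 CPM in control, overlapping widely, at a log2 fold change of 0.07 (SE 0.342). Its transcript has 38.8% GC, and the 441 tested genes within 1 point had a median of −1.95. Meis1 and Meis2 were at log2 fold changes of 0.52 and −0.19 without correction, where genes of like GC content had medians of −1.14 and −0.83. With the GC trend removed all 3 were called higher, at 1.81 for Meis1, 0.77 for Meis2 and 2.12 for Pbx3. Meis2, by contrast, was called lower, at −0.35, without control replicate 2 and with no correction, and Meis1 higher, at 0.84, without control replicate 1. With GC content averaged over transcripts only Meis1 (1.44) of these 3 was called, so the corrected values of Meis2 and Pbx3 rest on the transcript chosen. Pbx4 had at most 15 counts in a library and was at 0.02.

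**Figure D4:**
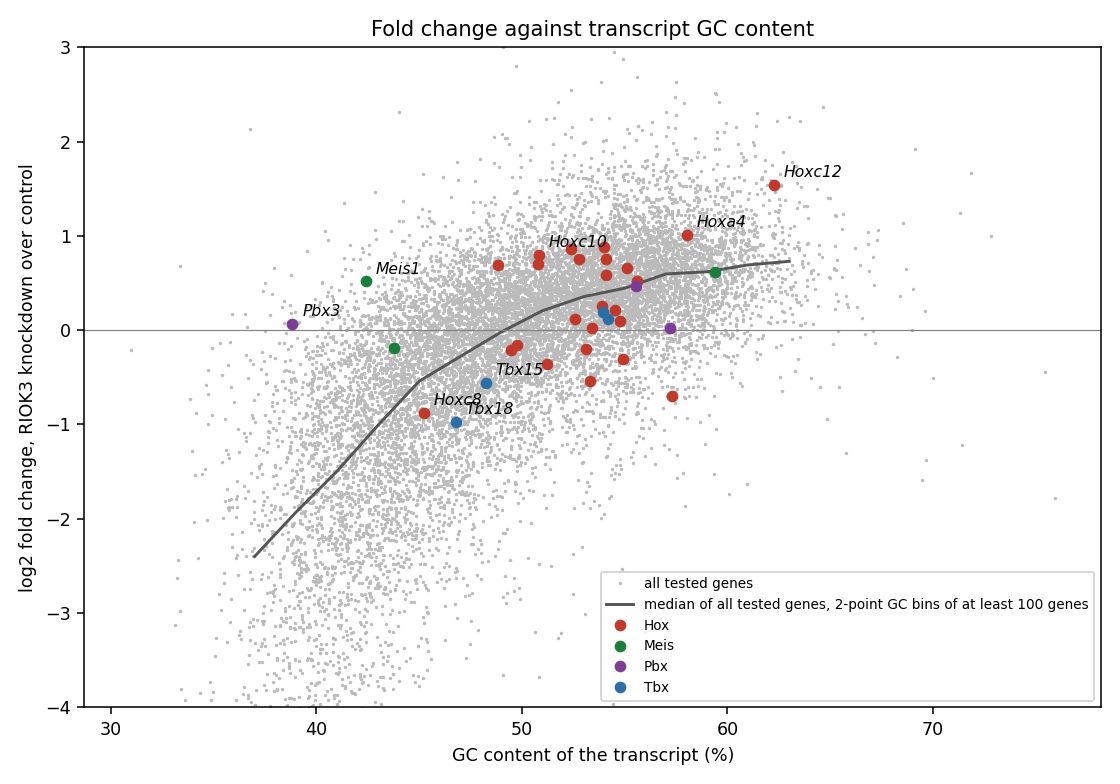
Log2 fold change (knockdown over control) against the GC content of the transcript for all tested genes (grey) and 35 tested members by family. The line is the median of all tested genes in bins of 2 points, and 161 genes lie outside the plotted range of −4 to 3. Hoxc10 lies above the line, Tbx18, Tbx15 and Hoxc8 below it, and Meis1 and Pbx3 far above it at low GC content.

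Tbx15 had the highest FPKM of the Tbx genes in every library, and of the 4 Tbx genes tested 2 fell and none rose. That is 50% called, near the 48% of all tested genes, of which 26.8% fell. Tbx15 (ENSMUSG00000027868.12, chromosome 3), which is needed for the limb girdles and other parts of the skeleton, had 88.9, 93.8 and 91.7 CPM in the knockdown, against 129.6, 149.9 and 126 CPM in control. The groups were apart, at a log2 fold change of −0.56 (SE 0.123, edgeR adjusted p = 0.00827). Its call was lost under 8 of the 23 alternatives. These were the GC trend removed (−0.41), the same with the replicate number as a block (−0.40), library totals alone (−0.31), upper-quartile factors (−0.38), the 3 limma-trend fits on log2 FPKM (−0.27, −0.28 and −0.27) and knockdown replicate 1 left out (edgeR adjusted p = 0.0543, the highest of the 6 values with a library left out, whose lowest is 3.27e-06). With GC content and length removed it was called, at −0.48.

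Tbx18 (ENSMUSG00000032419.9, chromosome 9), the closest relative of Tbx15 and a gene of pericytes and of somite boundaries, had 8.14, 7.84 and 8.79 CPM in the knockdown, against 18.9, 13.3 and 16.4 CPM in control. The knockdown level was 0.510 times the control level, with means of 8.26 ± 0.485 CPM in the knockdown and 16.2 ± 2.79 CPM in control (SD, n = 3 each) and no overlap. Its log2 fold change was −0.97 (SE 0.166, edgeR adjusted p = 0.00302). The GC-corrected value was −0.59, still called. In GENCODE M21 20.6% of its exon bases overlap D030062O11Rik on the other strand. Whether fewer cells carried Tbx18 or each cell held less cannot be told apart in RNA pooled from many cells.

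Tbx3, a gene of limb and mammary patterning, and Tbx4, a gene of the hindlimb, were at 0.12 and 0.19 and were not called. Tbx4 had 49 to 80 counts in the knockdown and 41 to 58 in control. Tbx1, Tbx2, Tbx6, Tbx20 and Tbx21 did not pass the count filter and had at most 39 counts per library. Tbx1 had 18, 39 and 6 counts in the knockdown, against 5, 7 and 7 in control, so knockdown replicate 3 lay inside the control range and the other knockdown libraries above it. Tbx1 passed the filter only when a library other than knockdown replicate 1 or 2 was left out, through the high counts of those 2 libraries. It was then called higher without knockdown replicate 3, at 1.98, or without control replicate 2, at 1.66. Without control replicate 1 (1.39) or control replicate 3 (1.61) it was not called. The gene entered these fits because it was high in the knockdown, so the calls are no support for a rise. Outside the numbered genes, Mga, which joins a T-box to a MAX-binding domain, fell to 10.04, 11.7 and 14.3 CPM in the knockdown, against 169, 58.6 and 147 CPM in control (log2 fold change −3.38, SE 0.407, edgeR adjusted p = 0.000705). It remained called, at −2.02, after the GC correction.

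Of 8 other TALE genes tested, 4 rose and none fell, at a median log2 fold change of 0.43, where 21.1% of all tested genes rose and 26.8% fell. Without control replicate 2 the calls were 4 higher and 1 lower, where 35.1% of all genes were higher and 36.5% lower. Irx3, an Iroquois gene, had 90.9, 90.3 and 81.7 CPM in the knockdown, against 35.7, 32.3 and 32.2 CPM in control (1.39, SE 0.123, edgeR adjusted p = 0.000175). Pknox2, which encodes a Pbx partner, was at 1.75, and Irx1 at 0.62, both called. With the GC trend removed 3 were higher and 1 lower, where 17% of all genes were higher and 15.6% lower. Irx3 at 0.63 and Pknox2 at 1.43 were called and Irx1, at −0.12, was not. Of limb and skeletal regional genes outside the members, 4 of 14 tested rose and 3 fell, at a median of 0.05. That is 7 of 14 called, near the 48% of all genes, and with the GC trend removed 2 were higher and 4 lower. Shox2, a gene of the proximal limb skeleton, fell to 29.2, 27.8 and 27.3 CPM in the knockdown, against 103, 52.3 and 81.7 CPM in control (−1.49, SE 0.244, edgeR adjusted p = 0.00255). Its GC-corrected value was −1.51. The limb mesenchyme genes Prrx2 and Prrx1 were at 1.52 and −1.04, both called. After that correction they were at 0.77, still called, and −0.05, not called.

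Of 30 Polycomb genes, whose products hold Hox clusters silent, 9 fell and 7 rose, at a median log2 fold change of 0.04. That is 53.3% called, near the 48% of all tested genes. Suz12, a core subunit of Polycomb repressive complex 2, had 8.24, 11.1 and 10.6 CPM in the knockdown, against 124, 45.9 and 97.5 CPM in control (−3.16, SE 0.373, edgeR adjusted p = 0.000642). Mtf2, an accessory subunit of that complex, was at −3.68 and the PRC1 gene Phc3 at −1.60, and all 3 were still called lower with the GC trend removed, at −1.68, −1.55 and −0.64 for Suz12, Mtf2 and Phc3. Among 19 Trithorax and MLL complex genes, which keep Hox genes active, 4 fell and 2 rose, at a median of −0.01, or 31.6% called, below the 48% of all genes. Psip1, which tethers MLL complexes to chromatin, was at −2.79, Kdm6a, a demethylase of H3K27, at −2.73 and Mllt3 at −2.11, all called with and without the GC correction. With GC content and length removed, Mllt3 (−0.50) and Phc3 (−0.23) were not called, and Suz12, Mtf2, Psip1 and Kdm6a were still called lower. Of 12 tested genes of retinoic acid signalling and the Cdx family, 6 rose and 1 fell, at a median of 0.48, or 58.3% called, against 48% of all genes. The receptor gene Rarg and the retinoic acid carrier gene Crabp2 were at log2 fold changes of 1.17 and 1.09, and Aldh1a1, which encodes a retinaldehyde dehydrogenase, at −1.45, and these 3 were called with and without the GC correction. After it, the counts were 8 higher and 5 lower for Polycomb, 3 and 3 for Trithorax and 3 and 2 for retinoic acid, where 17% of all genes were higher and 15.6% lower. Without control replicate 2 and with no correction they were 13 higher and 13 lower for Polycomb, 4 and 10 for Trithorax, 7 and 1 for retinoic acid and 7 and 4 for the limb genes. In that setting 35.1% of all genes were called higher and 36.5% lower (71.6% in either direction).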

How the data were processed

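The values deposited by the authors are unnormalised whole-number counts and FPKM, which divides counts by gene length and library total. Per the submitters' processing notes, HISAT2, MultiQC and GRCm39 were used. The counting tool, its strand setting and the annotation release were not given in the sources used here. Per the labels' protocols, 2 μg of RNA per library went into a stranded kit, with paired reads of 150 bases.

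Counts of 13067 genes kept by filterByExpr (99.95% of counts) were scaled by TMM and tested with edgeR 4.0.16 in R 4.3.3 (robust quasi-likelihood fit, no covariates, two-sided). The SE is the log2 fold change divided by the root of F. FPKM served for comparing genes and for alternatives. On simulated counts the test was checked. The GC alternatives removed each library's loess trend (span 0.3) of log2 CPM (prior count 2) on GC content of a single GENCODE M21 transcript per gene, that with the longest coding part, known for 99.8% of tested genes and all 47 members. A change that itself follows GC content is removed by this too. Further alternatives were DESeq2 1.42.0, limma-voom and limma-trend (limma 3.58.1) and other scalings and filters. GENCODE M21 and the RefSeq promoters are on GRCm38, an earlier build, so gene positions are not printed. Replicates differed by more than counting error in every pair. Members and lists were chosen with earlier results of these data known. All members were to be named, with up to 3 genes of smallest p from each further list. Some members enter the counts and medians, and their own values are not reported here.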

Additional observations from a re-analysis of the deposited data

How the results depend on the processing

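Of 823 refits of single members, 586 kept direction and side of the threshold (or, where neither fit called the gene, moved by under 1 SE), 63 lost the call, 95 gained one, 18 reversed and 61 turned sign by over 1 SE with no call in either fit. The members called higher, 10 of 37 tested in the report, were 17 under upper-quartile factors, 17 with library totals alone and 5 with averaged GC content removed. There 28.9, 32.8 and 16.7% of all genes were (21.1% in the report). Limma-trend called 18 of 29 tested members higher on log2(FPKM + 1) and 18 of 29 on log2(FPKM + 0.1), where 40.5 and 39.8% of all genes were. Its filter of FPKM 1 in 3 libraries can be passed through 1 group alone, as Hoxc5 did through the knockdown. Calls of genes that passed this way are no support for a rise. With no filter, limma-trend on log2(FPKM + 1) called 15 of 47 higher, where 18% of all genes were. The members called lower, 3 in the report, were 7 by limma-voom, 6 with GC content and length removed, 9 with GC content removed and control replicate 2 left out, 11 with length removed as well and 8 with averaged GC content removed, where 36.8, 18.1, 28.5, 26.9 and 15.2% of all genes were (26.8% in the report). With 1 library left out, 5 to 15 were called higher (5 without knockdown replicate 1, 6 without knockdown replicate 2 or 3, 15 without control replicate 2, where 12.3, 12.3, 13.9 and 35.1% of all genes were) and 2 to 5 lower (2 without knockdown replicate 1, 5 without control replicate 2, where 20.4 and 36.5% were). The background moves with the setting, so these counts are no change of the members alone. The cause was not tested. With averaged GC content removed Hoxa7 was called lower, at −0.42, a setting added after the data were seen, as was the removal of GC content and length without control replicate 2, where Hoxc4 was at −0.31 and Tbx3 at −0.41, both called lower. Tbx3 was also called, at −0.46, with GC content alone removed and that library left out. Meis2 turned to higher calls at 0.77 with GC content removed, 0.89 with length too, 0.69 and 0.90 when control replicate 2 was also left out, and 0.77 with the replicate block. Signs of called genes turned without a call for Meis3, at −0.051 with GC content removed, −0.026 with the replicate block too and −0.00017 with averaged GC content. They did so for Pbx2, at −0.032 with GC content removed, −0.075 with length too, −0.088 and −0.10 when control replicate 2 was also left out, −0.026 with the replicate block and −0.0071 with averaged GC content. Same-numbered libraries deviated together with correlations of −0.076, 0.0444 and 0.0522, and differently numbered ones with −0.107 to 0.12. With 3 libraries per group and control replicate 2 apart, these values cannot show whether the numbers pair the samples. With the replicate number as a block 8 were called higher (Hoxa2 and Pbx2 were not) and 3 lower (18.3 and 24.7% of all genes), and with the block and GC content removed 6 and 3 (12.7 and 12.1% of all genes), where Hoxb9 and Hoxa2 were not called. The filter of 5 CPM left Hoxa2, Hoxa4 and Hoxc12 untested. Depth limits the genes under about 100 counts per library, such as Hoxc12, Hoxa6 and Tbx1.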
